A study of Drosophila melanogaster with 5 samples.

Results

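The genes described here encode subunits of the vacuolar H+-ATPase (V-ATPase) of *Drosophila*. They were taken by a name rule, as every gene whose symbol begins with "Vha", which gave 32 of the 16495 genes in the deposited table. From general knowledge of fly expression atlases, 13 of them were listed as widely used subunit genes and 9 as testis paralogs, and the remaining 10 are called further paralogs. The C subunit gene was not matched to the table by symbol and was not analysed here. ATP6AP2, an accessory subunit without a Vha symbol in the annotation, is given apart.

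The V-ATPase is a rotary proton pump. Its V1 sector, outside the membrane, splits ATP, and its V0 sector, inside the membrane, carries the protons. Besides acidifying lysosomes and endosomes in nearly every cell, the pump is dense in the apical membrane of the principal cells (PCs) of the Malpighian tubules (MTs), the fly kidney, where the proton gradient drives ion and fluid secretion through exchangers.

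Single-nucleus RNA-seq libraries of MTs from adult female flies were compared, 1 library for each of 5 genotypes, each made from 90 pairs of MTs. EGT > w1118 flies carried esg-GAL4, tub-GAL80TS and UAS-GFP, and EGT > yki act flies also carried UAS-yki3SA, an activated yorkie. The esg driver is active in stem and progenitor cells of the gut and in renal stem cells (RSCs), not in PCs. PCts > w1118 flies carried the PC driver CG31272-GAL4 with tub-GAL80TS, PCts > Pvr act flies also UAS-Pvr act, an activated form of the receptor tyrosine kinase Pvr. UAS-Pvr RNAi was carried in its place by the flies of the library labelled PCts > Pvr RNAi. All flies were grown at 18 °C, where GAL80TS holds GAL4 off, and induced at 29 °C, for which the labels give 8 days in the protocol and 5 days in the sample characteristics. The study asked how gut tumors that overexpress activated yorkie, and Pvr signaling in PCs, alter the kidney.

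The libraries held 1969 to 9367 nuclei and 10018765 to 39154127 unique molecular identifiers (UMIs). Values below are means over nuclei of UMIs per 10,000 UMIs of the nucleus, and a log2 fold change is the log2 ratio of such means with 1 added to each. The added 1 keeps a gene that is low in both libraries near 0, whatever its ratio. Such genes still count in the shares of all genes given below, and hold those shares down. With no replicate library, no test between genotypes was possible. The 95% intervals are exact and cover counting error only, not variation between flies or preparations. Because reads came from the 3′ end and were not scaled by length, levels of different genes are not compared with each other. Of 21318 barcodes, 53 were found in 2 libraries and 0 in more. Over all nuclei, Pvr was at 4.298 in PCts > w1118 and at 4.74 in the library labelled PCts > Pvr RNAi, which was therefore not lower than its control, and main segment PCs of these libraries had 9.09 and 8.61. The gene yki was near 0.50 in EGT > w1118, against 0.46 in Yki flies (EGT > yki act). The libraries were made from MTs, so these values do not show yki in the gut, where the esg driver also acts. Among the cell type markers, tsh and SecCl were highest in the annotated stellate cells (SCs), btl and trh in tracheal cells, and Mhc, Mlp60A and Mf in visceral muscle of both control libraries. The renal stem cell marker N was highest in RSCs of PCts > w1118, at 3.80. In EGT > w1118 it was highest in renal stem cells 2 (Pvr-act), at 10.1, against 1.46 in RSCs. The principal cell markers ct, CG31272 and List were each highest in a PC type in both control libraries. Uro, a further PC marker, was highest in a PC type of EGT > w1118, main segment PCs 2, at 22.3. In PCts > w1118 Uro was highest in visceral muscle, at 26.0, followed by RSCs at 19.1, so it was not restricted to PCs there. The fat body marker Lsp2 had 0 UMIs in either control library.

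The transcripts of the pump came almost wholly from the widely used genes, which took 1.27% of the UMIs of EGT > w1118 where all members took 1.28%. Over the 5 libraries, 16 of the 32 members had at least 1000 UMIs, 10 had fewer, and 6 had 0. Those at 0 were VhaPPA1-2, VhaM9.7-d, Vha16-2, Vha16-3, Vha36-2 and Vha100-3. All 13 widely used genes were among the 16, with totals from 16648 for VhaAC39-1 to 430639 for Vha16-1, and the other 3 were the further paralogs Vha100-1 with 6145, VhaM9.7-c with 2836 and Vha100-5 with 2114. The 9 testis paralogs had at most 128 UMIs each, in the case of Vha14-2. Vha68-1 gave 0.90% of the Vha68 UMIs in EGT > w1118, and VhaM9.7-c gave 5.11% of the VhaM9.7 UMIs, whereas paralogs of Vha100 took larger shares in some cell types and libraries, given further on. Vha68-3 starts 178 bp from the end of Vha68-2 on the same strand and Vha100-4 lies 517 bp from Vha100-2, so their 45 and 79 UMIs cannot be told apart from reads that run past the neighbouring gene.

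In main segment PCs, the cells that carry most of the secretion, every widely used gene was detected in both control libraries, and 12 of the 13 differed between them by less than 0.5 on the log2 scale. Among the V1 genes, Vha68-2, which encodes the catalytic A subunit, was at 5.01 in EGT > w1118 and 5.14 in PCts > w1118. Vha55, for the nucleotide-binding B subunit, was at 4.65 and 5.54, and Vha26, for subunit E of the peripheral stalks, at 9.92 and 8.94. The control libraries stood close for these genes, and likewise for Vha13, the partner of Vha26 in the stalks, at 7.81 and 7.48. The central stalk genes Vha36-1 and Vha14-1 were at 2.79 and 2.42 and at 1.66 and 1.26. VhaSFD, for the regulatory H subunit, was at 4.34 and 3.12.

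Among the V0 genes, Vha16-1, which encodes the proteolipid of the rotating c ring, was at 41.3 in EGT > w1118 and 36.9 in PCts > w1118. Vha100-2, for the a subunit that lines the proton path, was at 5.15 and 3.34, the widest gap between the controls among the 13 genes. VhaPPA1-1, for the second kind of proteolipid in the ring, was at 1.39 and 1.20, and VhaAC39-1, for subunit d that joins ring and stalk, at 1.24 and 0.909. The small subunit gene VhaM9.7-b was at 3.24 and 2.48, and the accessory subunit genes VhaAC45 and ATP6AP2 were at 2.17 and 1.81 and at 1.93 and 1.72.

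**Figure D1:**
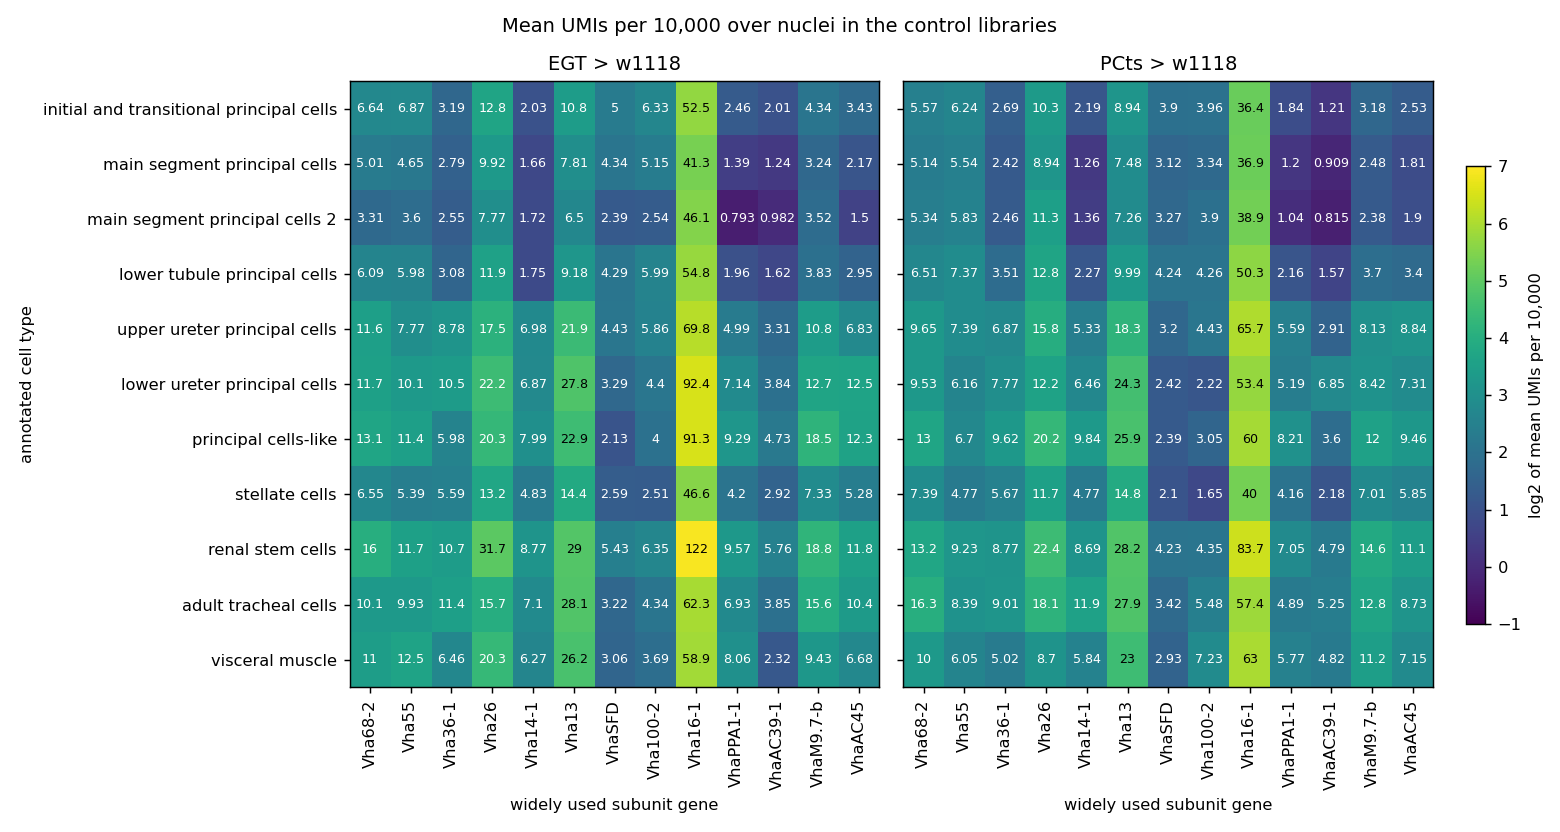
Mean UMIs per 10,000 (numbers; color, log2 scale) of the 13 widely used genes in each annotated cell type with at least 20 nuclei in both control libraries. In EGT > w1118, Vha16-1 is at 41.3 in main segment principal cells and 122 in renal stem cells, and Vha100-2 at 5.15 and 6.35.

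Pump transcripts were not highest in the main segment. The 13 genes together took 0.908% of all UMIs of main segment PCs in EGT > w1118 (0.901 to 0.915) and 0.812% in PCts > w1118. They took 3.07% and 2.38% in RSCs, 2.10% and 1.92% in tracheal cells, and 2.16% and 1.44% in lower ureter PCs. SCs were near the PCs at 1.19% and 1.00%. Of these types RSCs were highest and main segment PCs lowest in both controls. Tracheal cells stood below the ureter PCs in EGT > w1118 and above them in PCts > w1118, where upper ureter PCs were at 2.25% and 1.79%.

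The types with high shares were shallow, although not every shallow type had a high share. The median nucleus had 11479.5 UMIs in main segment PCs of EGT > w1118 but 548 in RSCs, 822 in tracheal cells and 1118.5 in lower ureter PCs. Ribosomal protein genes took 24.6%, 24.2% and 25.6% of UMIs in those 3 types and 3.55% in main segment PCs. In renal stem cells 2 (Pvr-act) of EGT > w1118, however, the pump share was 1.30%. The median nucleus there had 390 UMIs, and ribosomal protein genes took 19.3%. Tracheal and muscle nuclei lie outside the MT epithelium, and the part of free RNA or of depth in the high shares was not tested.

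**Figure D2:**
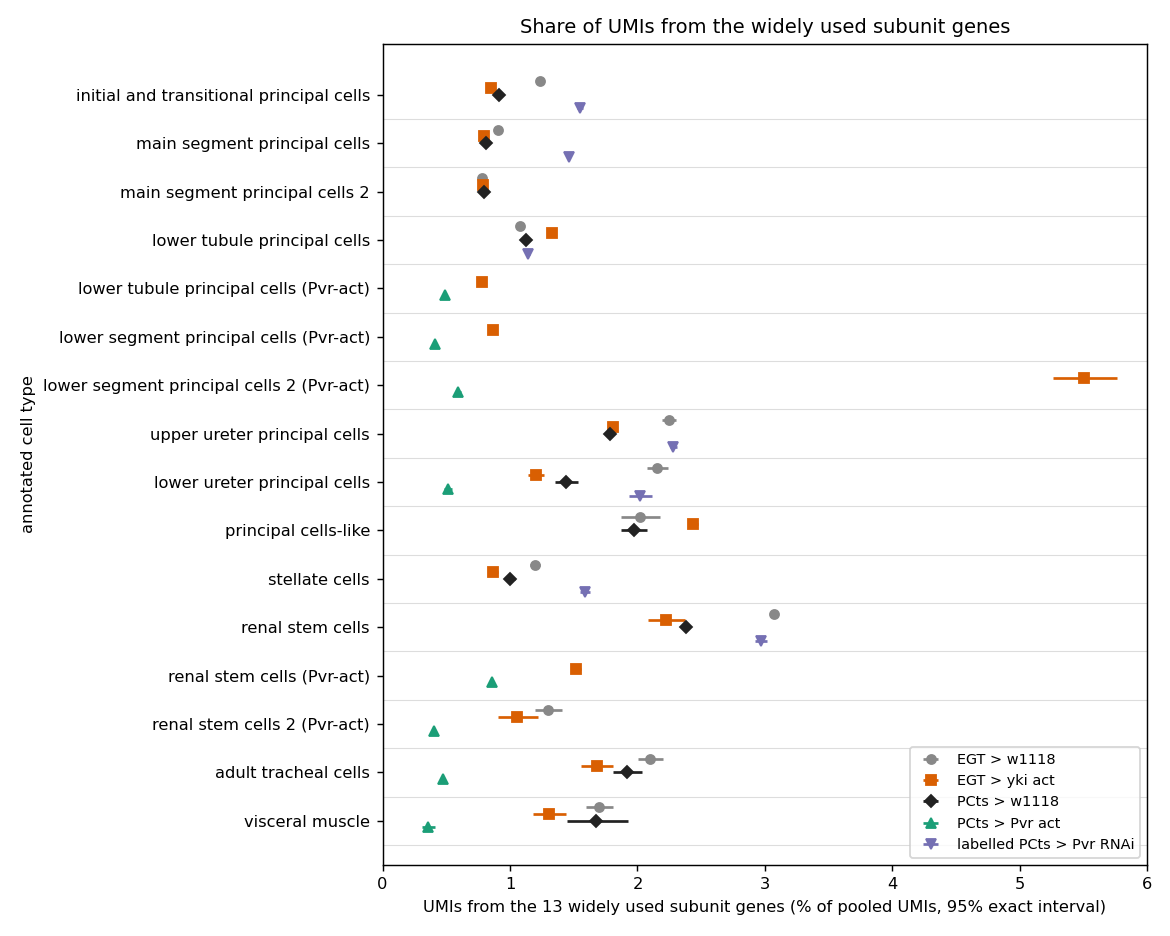
Share of pooled UMIs from the 13 widely used genes (percent, x axis) in each annotated cell type (y axis) and library, with exact 95% intervals for counting error. Points stand for at least 20 nuclei. PCts > Pvr act lies lowest in each type where another library has a point, for example at 0.471% in adult tracheal cells against 1.92% in PCts > w1118. The point at 5.51% comes from 24 nuclei, whose mean over nuclei was 1.74%.

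Most subunit genes varied together, but Vha100-2 and VhaSFD did so less. Over 55 groups of nuclei, each a cell type in a library, the log2 level of a widely used gene had a Pearson correlation with the summed other 12 genes of 0.77 for Vha100-2 and 0.79 for VhaSFD, and of 0.87 to 0.96 for the other 11. In the 23 groups of the control libraries the correlation was 0.53 for Vha100-2 and 0.26 for VhaSFD. These groups share libraries, depth and free RNA, so the values describe and test nothing. Vha100-2 gave 5.74% of the widely used UMIs in main segment PCs of EGT > w1118 and 2.06% in SCs, and its level was 5.15 in the former and 2.51 in the latter. Its level in PCts > w1118 was likewise higher in main segment PCs, 3.34, than in SCs, 1.65, while Vha13 went the other way, at 7.48 and 14.8.

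Vha100-5, a further paralog of the a subunit on chromosome 2L (11738948 to 11744524, plus strand, BDGP6.54), had a level that differed widely between PC types. Its level in lower ureter PCs was 5.34 in EGT > w1118, 2.72 in EGT > yki act, 7.38 in PCts > w1118, 0.04 in PCts > Pvr act and, with the label PCts > Pvr RNAi, 3.02. The gene was thus readily seen there in every library but PCts > Pvr act, from which it had 1 UMI. In initial and transitional PCs it was at 1.37 to 1.98 in the 4 libraries that held this type, and in SCs at 1.14 to 1.97. In main segment PCs it was at 0.02 to 0.09 and in lower tubule PCs at 0.01 to 0.06. The types named here as high and low, picked by their values, did not overlap except for the lower ureter of PCts > Pvr act. Other types are not part of that statement.

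Read as a share of the Vha100 family, Vha100-5 gave 48.2% (38.8 to 57.8) of the family's UMIs in lower ureter PCs of EGT > w1118 and 68.1% (56.0 to 78.6) in PCts > w1118. The same share was 50.8% for the library labelled PCts > Pvr RNAi, 47.7% for EGT > yki act, and for PCts > Pvr act 1.82% (0.05 to 9.72), that is 1 of 55 UMIs. The share was 36.1% and 28.9% in SCs of the controls, 19.5% and 19.7% in initial and transitional PCs, and 1.33% and 0.93% in main segment PCs. It was 8.00% and 7.68% in upper ureter PCs and 6.79% and 3.91% in RSCs. In main segment PCs 2 it was 11.7% and 0.78%, from 20 UMIs and 1 UMI. Over all nuclei Vha100-5 gave 5.19% and 4.91% in these controls, and Vha100-2 gave 85.7% and 80.7%.

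The types with little Vha100-5 were the deepest, so detection was also compared at equal depth. With each nucleus thinned to 500 UMIs, 16.1% of 62 lower ureter nuclei of EGT > w1118 had a Vha100-5 UMI (8.02 to 27.7) against 0.37% of 544 main segment nuclei, and the unthinned shares were 43.2% and 6.62% at median depths of 1118.5 and 11479.5 UMIs. In PCts > w1118 the thinned shares were 28.6% of 35 nuclei and 0% of 747 (upper limit 0.49). In PCts > Pvr act 0% of 86 lower ureter nuclei had a UMI after thinning, which allows a share of up to 4.20%. An antisense RNA gene overlaps Vha100-5, and whether reads were assigned by strand is not given in the sources used here.

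**Figure D3:**
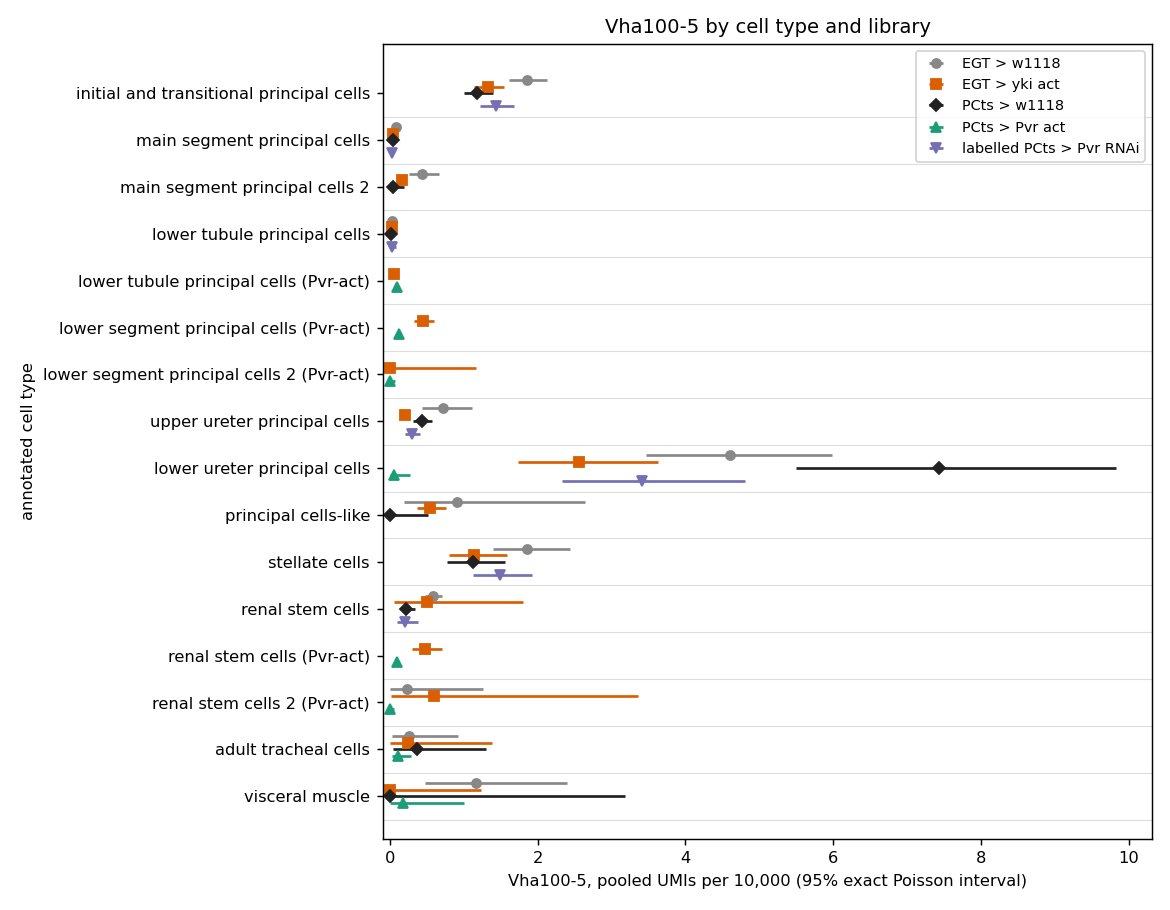
Vha100-5 level as pooled UMIs per 10,000 (x axis) by annotated cell type and library, with exact Poisson 95% intervals. Lower ureter, initial and transitional principal cells and stellate cells lie above main segment and lower tubule principal cells, and PCts > Pvr act stays near 0 in the lower ureter.

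The control libraries differ in driver and preparation and give the only measure of library-to-library spread. In main segment PCs, PCts > w1118 against EGT > w1118, 1 of the 15 members that passed the filter (a UMI in 10% or more of the nuclei of one of the libraries) lay past a log2 fold change of 0.5, where 2.25% of all genes were lower and 2.35% higher by that much. It was Vha100-2, at -0.50, with a log2 ratio of pooled UMIs of -0.62 (-0.69 to -0.54). The next lowest were VhaSFD at -0.37 (pooled -0.48, -0.55 to -0.40) and VhaM9.7-b at -0.29 (pooled -0.24, -0.33 to -0.15). The highest were Vha55 at 0.21 (pooled 0.28, 0.21 to 0.34), Vha100-1 at 0.08 (pooled 0.09, -0.11 to 0.29) and Vha68-2 at 0.03 (pooled 0.03, -0.04 to 0.09). The median of the 13 widely used genes was -0.16. For 95% of all genes the controls were within 0.48, so smaller values cannot be set apart from the spread between libraries.

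In main segment PCs of Yki flies (94 nuclei, against 544 in EGT > w1118), 6 of the 13 widely used genes were lower, whereas Vha16-1, Vha100-2 and Vha55 stood near the control. Most main segment nuclei of Yki flies, however, were annotated as a second type, main segment PCs 2 (325 nuclei, against 36 in the control), where 0 of the 13 were past the fold. Within the first type, 11 of the genes had a log2 fold change below 0, and 6 were past -0.5, with 0 past 0.5, where 2.67% of all genes were lower and 2.5% higher. The 6 were Vha14-1, Vha36-1, Vha26 and Vha13 of V1, VhaM9.7-b of V0, and VhaAC45. Among the 16 members that passed the filter no other was past the fold. The median of the 13 genes was -0.49 against -0.02 for all genes, with a range from -0.59 to 0.11. Among nuclei of main segment PCs 2, 0 members were past the fold in either direction, where 6.97% of all genes were lower and 7.53% higher, and the median of the 13 was 0.01. With both types merged, a choice made after seeing the data, 2 members were lower, VhaSFD at -0.56 and Vha26 at -0.50, and 0 higher (backgrounds 4.07% and 4.09%), with a median of -0.30.

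Vha14-1 was at 0.76 in Yki flies, 1.66 in EGT > w1118 and 1.26 in PCts > w1118, a log2 fold change against the own control of -0.59 and a pooled log2 ratio of -1.12 (-1.42 to -0.83). Vha36-1 was at 1.52 against 2.79, or -0.59 (pooled -0.87, -1.08 to -0.67), and Vha26 at 6.28 against 9.92, or -0.58 (pooled -0.64, -0.74 to -0.54). These 3 genes were lower in Yki flies than in either control. Other genes within the fold also had pooled log2 ratios with intervals below 0, VhaAC39-1 at -1.05 (-1.38 to -0.73), VhaSFD at -0.65 (-0.80 to -0.50), VhaPPA1-1 at -0.64 (-0.91 to -0.38) and Vha68-2 at -0.59 (-0.73 to -0.45), so the lower genes were of both sectors. At the other end, Vha16-1 was at 44.7 against 41.3, or 0.11 (pooled 0.13, 0.09 to 0.17). Vha100-2 was at 5.17 against 5.15, with a pooled log2 ratio of 0.00 (-0.11 to 0.11), and Vha55 was at 4.32 against 4.65, or -0.09. These 3 genes, unlike the other 10, had no pooled interval below 0. The remaining high members were paralogs at low level, Vha100-1 at 0.77 against 0.55, or 0.19 (pooled 0.36, 0.05 to 0.66), and Vha68-1 at 0.08 against 0.04, or 0.06 (pooled 1.06, -0.02 to 2.06).

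Vha26, Vha13 and the other genes past the fold did not behave alike in every type of Yki flies. Among initial and transitional PCs, 11 of the 13 genes were past -0.5, where 4.53% of all genes were lower, with a median of -0.59. In SCs 8 were lower, where the background was 11.9%, with a median of -0.57, and in lower ureter PCs 10, where it was 17.9%, with a median of -0.72. In upper ureter PCs 4 were lower (background 10.3%), and in lower tubule PCs 0 (background 4.92%), with a median of -0.0046. The other control was itself below EGT > w1118 in several of these types. Between the controls, 2 of the 13 genes were lower in initial and transitional PCs (background 1.91%, median -0.29), 6 in lower ureter PCs (15.7%, median -0.39), 0 in upper ureter PCs (7.39%, median -0.24) and 0 in SCs (5.54%, median -0.06). The share of UMIs from the 13 genes in initial and transitional PCs was 1.24% in EGT > w1118, 0.916% in PCts > w1118 and 0.853% in Yki flies, and in upper ureter PCs 2.25%, 1.79% and 1.81%. Yki flies thus stood nearer to the other control than to their own in both types. Vha16-1 stood apart in the lower tubule, at 79.8 against 54.8, the only member past 0.5 there, where 4.05% of all genes were, and above both controls, since PCts > w1118 was at 50.3. Over all nuclei 3 genes were lower, Vha26 at -0.67, Vha68-2 at -0.63 and Vha14-1 at -0.61, and 0 higher, where 6.66% and 8.32% of all genes were, and the median was -0.46. RSCs, which had a high share of pump transcripts, made up 47.1% of the nuclei of EGT > w1118 but 0.82% of those of Yki flies. A further 13.1% of the nuclei of Yki flies were annotated as RSCs (Pvr-act), against 0.41% in EGT > w1118. Their share of pump transcripts in Yki flies was 1.52%. The part of this makeup in the values over all nuclei was not tested. Against PCts > w1118 the count over all nuclei was 0 lower (background 6.36%) with a median of -0.19, and between the controls the median was -0.30. With all principal types merged, the median was 0.20, with VhaM9.7-b, Vha16-1 and VhaPPA1-1, 3 members, past 0.5 and 0 past -0.5 (backgrounds 7.94% and 7.24%). The upper ureter held 971 of these nuclei in Yki flies and 94 in the control. Against PCts > w1118 as the control, main segment PCs had 2 members lower and 1 higher, Vha100-2 at 0.51, where 2.9% and 2.73% of all genes were, with a median of -0.30.

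Other genes of the pathway were also examined in main segment PCs of Yki flies. The list was Rbcn-3A and Rbcn-3B, which help assemble the pump, Mitf, a transcription factor that drives V-ATPase genes in flies, the TLDc protein gene mtd, and the cation/proton exchanger genes Nha1, Nha2, Nhe1, Nhe2 and Nhe3. Of these 9, 7 passed the filter and 0 were past the fold in either direction, where 2.67% of all genes were lower and 2.5% higher, so a count of 0 among 7 says little about these genes. The accessory subunit gene ATP6AP2, which is not in this list, was lower, at -0.52. Mitf was at 4.17 against 4.75, or -0.15. Pvr was at 14.7 against 10.8, or 0.41.

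PCts > Pvr act had the lowest share of pump transcripts of the 5 libraries, 0.534% from the 13 genes over all nuclei. PCts > Pvr act held 0 nuclei annotated as main segment PCs, so all principal types were merged, 5890 nuclei against 1649 in PCts > w1118. The merged sets were of largely different types. In PCts > Pvr act, 3395 nuclei were lower segment PCs (Pvr-act) and 1681 lower tubule PCs (Pvr-act). In PCts > w1118, 747 were main segment PCs and 3 lower tubule PCs (Pvr-act). The part of this makeup in the merged values was not tested. Of the 13 widely used genes 12 were past -0.5, where 16.6% of all genes were lower, and 0 of 16 members were past 0.5, where 15% were higher. The median of the 13 was -1.17 against -0.02 for all genes. In the same nuclei Pvr was at 31.1 against 6.66.

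Vha26 was at 3.02 in PCts > Pvr act and 11.5 in PCts > w1118, a log2 fold change of -1.64 (pooled -1.77, -1.81 to -1.73). Vha68-2 was at 1.92 against 6.58, or -1.38 (pooled -1.62, -1.66 to -1.57), and Vha13 at 3.99 against 10.96, or -1.26 (pooled -1.19, -1.23 to -1.16). V1 and V0 genes were both lower, with Vha100-2 at 1.24 against 3.70 and Vha16-1 at 24.7 against 44.8, or -0.83 (pooled -0.84, -0.86 to -0.82). The smallest difference among the 13 was that of VhaAC39-1, at 0.95 against 1.62, or -0.43 (pooled -0.15, -0.24 to -0.07). The paralogs differed among themselves. Vha100-1, known for its role at neuronal synapses, was at 0.73 in both libraries (0.00, pooled -0.09, -0.21 to 0.02), and VhaM9.7-c was at 0.25 against 0.23, or 0.03 (pooled 0.53, 0.32 to 0.73). Vha100-5 was at 0.09 against 0.44, or -0.41 (pooled -0.92, -1.15 to -0.68), and Vha68-1, below the filter, was at 0.02 against 0.04, or -0.03 (pooled -0.63, -1.09 to -0.16). Vha100-1 gave 34.2% (33.1 to 35.3) of the Vha100 UMIs over all nuclei of PCts > Pvr act and 14.2% (13.4 to 15.03) of those of PCts > w1118.

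The 3 annotated cell types with enough nuclei in both libraries gave the same direction. In tracheal cells (186 and 61 nuclei) 13 of 13 genes were past -0.5, where 27.1% of all genes were lower, with a median of -1.81. In visceral muscle (26 and 21 nuclei) 13 of 13 were, where 24.8% of all genes were, with a median of -1.85. In lower ureter PCs (86 and 39 nuclei) 12 of 13 were, where 25.7% were, with a median of -1.57, and Vha100-5 had 1 UMI against 49 (pooled -7.26, -12.6 to -4.71). The tracheal and muscle cells do not belong to the PCs in which the driver acts, yet Pvr was at 18.9 against 0.87 in the tracheal cells and at 9.28 in the muscle, against 0 UMIs of the control. Ribosomal protein genes took 9.04% of the tracheal UMIs against 20.4%, and the median tracheal nucleus had 1565.5 UMIs against 634. The part of free RNA, depth and library in the difference was not tested. Over all nuclei, 13 of 13 genes were lower and 0 members higher, where 19.9% and 16.9% of all genes were, with a median of -1.24. The mix of cell types differed, with 36.3% of the nuclei of PCts > w1118 annotated as RSCs. PCts > Pvr act held none under that label, but 26.7% as RSCs (Pvr-act). The part of this makeup in the values over all nuclei was not tested.

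EGT > yki act and PCts > Pvr act had 8 annotated types in common with at least 20 nuclei in each, among them the types named after Pvr act, though their drivers differ. The widely used share was lower in PCts > Pvr act in all 8, for example 0.411% against 0.866% in lower segment PCs (Pvr-act), 0.859% against 1.52% in RSCs (Pvr-act), and 0.493% against 0.778% in lower tubule PCs (Pvr-act). The median log2 difference of the 13 genes ran from -1.74 to -0.39 over these types, against -0.04 to 0.33 for all genes. Ribosomal protein genes also differed in some of them, at 7.60% of UMIs in PCts > Pvr act against 30.6% in EGT > yki act in visceral muscle and 14.7% against 40.5% in lower segment PCs 2 (Pvr-act), but at 4.81% against 4.94% in lower tubule PCs (Pvr-act), and their part in the difference was not tested. These shares are of pooled UMIs, in which deep nuclei weigh more. The 24 nuclei of lower segment PCs 2 (Pvr-act) in EGT > yki act held 31647 UMIs, at a median of 402.5. Their widely used share was 5.51% pooled but 1.74% as a mean over nuclei.

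Some testis paralogs had more UMIs in PCts > Pvr act than in its control, at very low counts. Vha14-2, a paralog of the F subunit gene, had 127 UMIs in PCts > Pvr act, 1 in EGT > yki act and 0 in each of the other 3 libraries. They lay in 110 nuclei, with 99 UMIs in lower segment PCs (Pvr-act) and 25 in lower tubule PCs (Pvr-act), and no nucleus had more than 4. Per UMI sequenced, this was 15.98-fold the floor of PCts > w1118, taken as 3 counts. The lower 95% limit of the pooled log2 ratio was 3.68. Vha36-3, a paralog of the D subunit gene, had 49 UMIs, of which 42 were in lower tubule PCs (Pvr-act), and 8 in PCts > w1118, of which 7 were in tracheal cells (pooled log2 ratio over all nuclei 1.21, 0.12 to 2.50). In the merged principal types it had 46 against 1 (pooled log2 ratio 4.33, 1.78 to 9.67). VhaAC45RP, a further paralog of VhaAC45, had 9 UMIs, all in PCts > Pvr act, which is 1.13-fold the floor of PCts > w1118, so no difference can be read from it. Against the 3493 UMIs of Vha14-1 in the merged types, Vha14-2 remained a small share, 2.34% (1.96 to 2.78) of the Vha14 UMIs over all nuclei of PCts > Pvr act.

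The same pathway list was read in the merged PCs of PCts > Pvr act. Of the 9 listed, 8 passed the filter, 4 were past -0.5 and 0 past 0.5, where 16.6% of all genes were lower and 15% higher. The 4 were mtd at -1.14, Nha2 at -0.85, Mitf at -0.63 and Nha1 at -0.52. Nhe2 went the other way without passing the fold, with 1177 UMIs against 44, at 0.47 (pooled 3.55, 3.12 to 4.02).

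**Figure D4:**
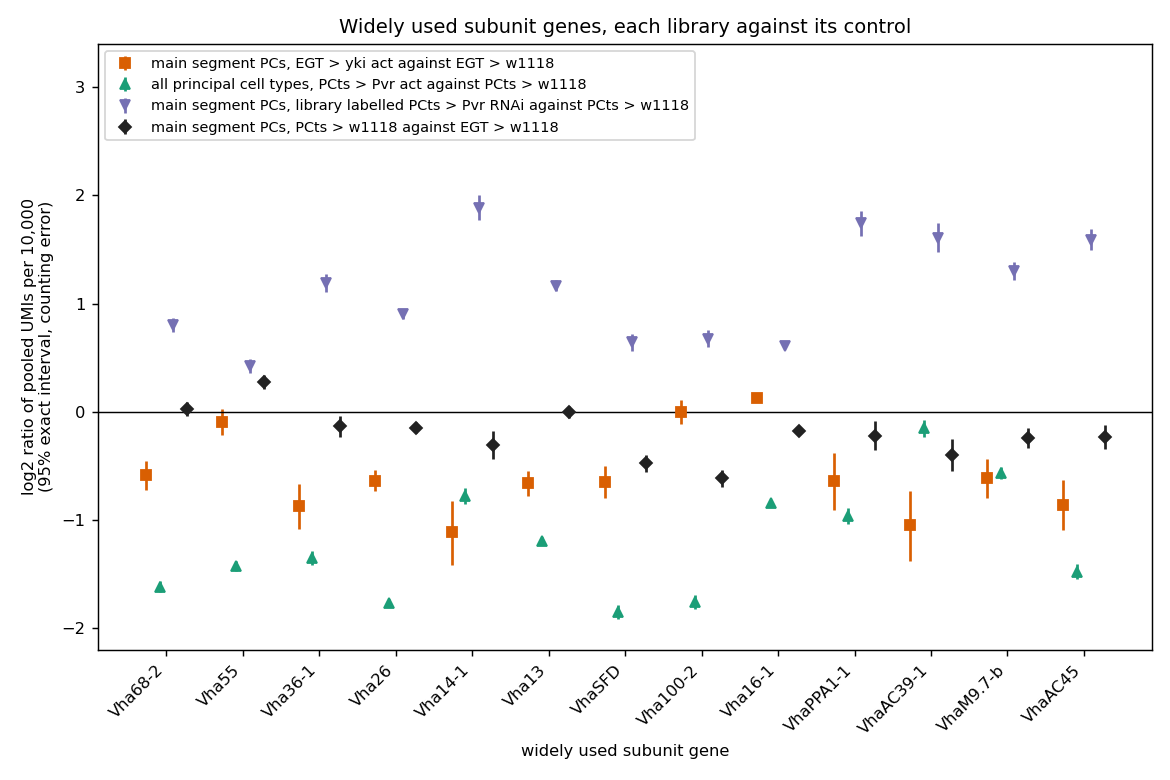
Log2 ratio of pooled UMIs per 10,000 (y axis, exact 95% intervals) of the 13 widely used genes in 4 comparisons. The comparison of PCts > Pvr act is over all principal cell types merged, and the others are in main segment principal cells. PCts > Pvr act lies below 0 for each gene, with VhaAC39-1 nearest to it at -0.15, the library labelled PCts > Pvr RNAi lies above 0 for each, and the controls lie between -0.62 and 0.28.

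Main segment PCs of the library labelled PCts > Pvr RNAi had higher pump transcript levels than their control. Among 597 and 747 nuclei, 12 of the 13 widely used genes were past 0.5, where 4.88% of all genes were higher, and 0 of 15 members were past -0.5, where 2.67% were lower. The median of the 13 was 0.89 against 0.01 for all genes, and the share of UMIs was 1.46% against 0.812%. Ribosomal protein genes, at 8.63% against 2.94% of UMIs, were higher in the same nuclei, at median depths of 8377 and 9678 UMIs, and their part in the difference was not tested.

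Vha14-1 was at 4.31 against 1.26 in PCts > w1118, a log2 fold change of 1.23 (pooled 1.89, 1.78 to 1.999). VhaAC45 was at 5.13 against 1.81, or 1.13 (pooled 1.59, 1.497 to 1.69), and VhaPPA1-1 at 3.80 against 1.20, or 1.12 (pooled 1.74, 1.63 to 1.86). These 3 genes were above both controls. Vha13 was at 15.97 against 7.48, Vha26 at 16.3 against 8.94, and Vha16-1 at 55.3 against 36.9, or 0.57. Vha100-2 was at 5.50 against 3.34, or 0.58, but 0.08 against EGT > w1118. At the low end Vha55, the only widely used gene within the fold, was at 7.41 against 5.54, or 0.36 (pooled 0.42, 0.36 to 0.48). VhaM9.7-c was at 0.25 against 0.16, or 0.11 (pooled 0.69, 0.32 to 1.06), and Vha100-1 at 0.55 against 0.64, or -0.08 (pooled -0.23, -0.44 to -0.01). Of the 9 pathway genes 6 passed the filter and 0 were past the fold.

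The number of genes higher varied by cell type, a variation that was not tested. In initial and transitional PCs 9 widely used genes were higher, where 5.13% of all genes were, with a median of 0.67. In upper ureter PCs 5 were (background 2.9%), in RSCs 4 (5.56%), in SCs 1 (3.78%) and in lower tubule PCs 0 (1.26%), with medians of 0.40, 0.25, 0.35 and 0.14. In the 33 and 39 lower ureter nuclei 2 were higher and 1 lower (backgrounds 16.1% and 20.3%). Over all nuclei 0 genes were past the fold in either direction (0.977% higher and 2.08% lower), although all 13 were above 0, with a median of 0.26. This count depended on how nuclei were weighted: with pooled UMIs, where deep nuclei count for more, 8 members were higher (background 5.01%) and the median was 0.67, with shares of 1.60% against 1.08%. Against EGT > w1118 the median over all nuclei was -0.012.

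The order of the genes in main segment PCs ran with the length of the gene. The 13 genes span from 659 bp (Vha14-1) to 8847 bp (Vha100-2). Their pooled log2 ratio had a Spearman rho with this span of 0.72 in EGT > yki act, where the short genes were lowest, and of -0.77 for the library labelled PCts > Pvr RNAi, where they were highest. Between the controls rho was -0.12. Vha14-1, the shortest and a single-exon gene in the annotation, stood at the end of the order in both. In merged principal types rho was -0.54 for PCts > Pvr act, -0.48 for EGT > yki act, -0.77 for the library labelled PCts > Pvr RNAi and -0.58 between the controls, so the sign in Yki flies depended on the types merged. The 13 genes are not independent replicates, the relation was looked for after the values had been seen, and exon and intron reads cannot be told apart in these counts.

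**Figure D5:**
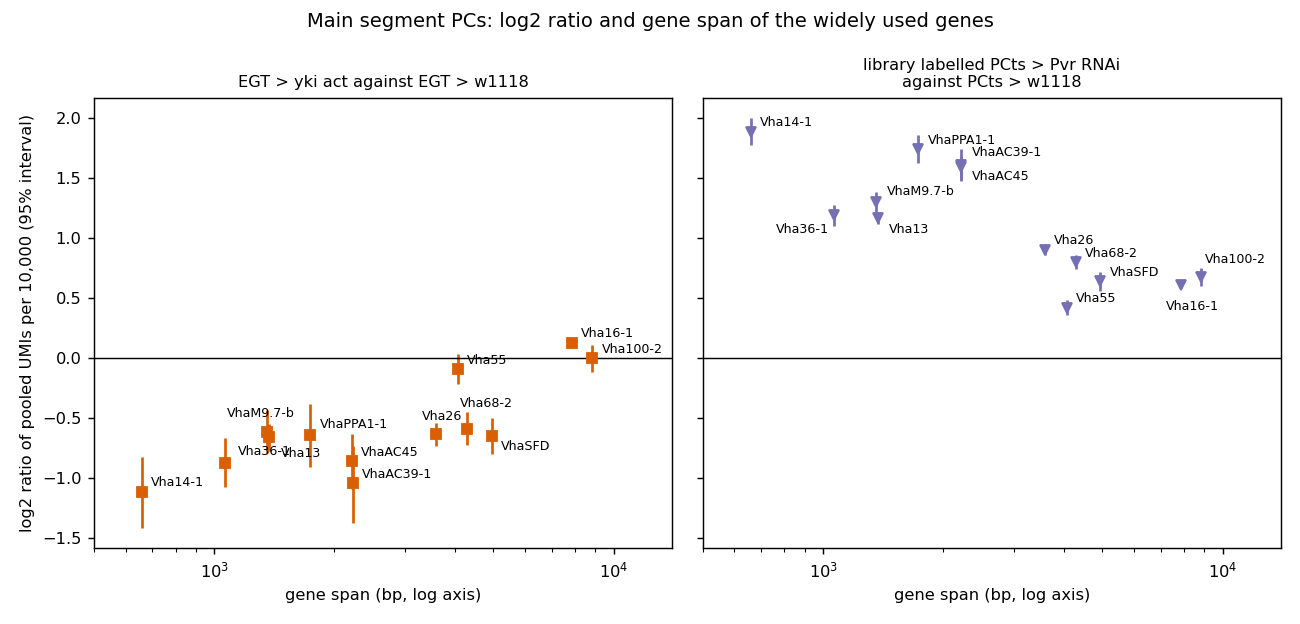
Log2 ratio of pooled UMIs per 10,000 in main segment principal cells (y axis, exact 95% intervals) against gene span in bp (x axis, log scale) for the 13 widely used genes. On the left, EGT > yki act against EGT > w1118, ratios run from -1.12 for Vha14-1 up to 0.13 for Vha16-1, and on the right, in the library labelled PCts > Pvr RNAi, from 1.89 for Vha14-1 down to 0.42 for Vha55.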

How the data were processed

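MT nuclei were sequenced with 10x 3′ chemistry, 1 library per genotype. The submitters' processing notes name Cell Ranger 7.0.0, Seurat and the genome build BDGP6. The authors normalized the UMI counts, clustered the nuclei with Harmony-corrected embeddings and deposited the natural log of the value per 10,000 UMIs plus 1, with a library and one of 17 cell types for each nucleus. Treatment of doublets and filters on nuclei are not given in the sources used here. Every nucleus summed to 10,000 on the linear scale, and in 100% of nuclei all values were whole multiples of the smallest (tolerance 1e-06), which recovered UMI counts. Depth ran from 150 to 123301 UMIs per nucleus.

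Symbols and spans came from Ensembl release 115 (BDGP6.54), which matched 16447 identifiers and left 48 unmatched. The members and gene lists were chosen with earlier results of these data known. A planned list of 15 widely used genes became 13, since 1 was unmatched and 1 is listed as ATP6AP2. All members were to be accounted for, the widely used genes described in full, and the 3 highest and 3 lowest of each comparison given with intervals. In the planned lists, Dl, a renal stem cell marker, was not matched either. Comparisons used means per 10,000 with a pseudocount of 1, a fold of 0.5, genes seen in at least 10% of nuclei, and cell types that had 20 or more nuclei in each library. Intervals were Poisson, Clopper-Pearson or conditional binomial. The conditional binomial ones were tested on simulated Poisson counts, which carry counting error only, so variation between nuclei or libraries was not tested. In these simulations the fold of 0.5 was passed by 24% to 30% of genes with a true log2 change of -0.75. For a true change of 0.75 it was passed by 44% to 52%. Alternatives were a pseudocount of 0.1, pooled UMIs, centring, dropping the 25% of nuclei poorest in genes or the 5% richest, the other control, MT types, equal weight per type, no filter on genes, folds of 0.25 and 1, and other thinning depths (1000 UMIs or none). Python 3.11.15, numpy 2.4.6, scipy 1.17.1 and matplotlib 3.10.9 were used. Sequences were not used here.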

Additional observations from a re-analysis of the deposited data

Results flagged for a closer look

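Vha16-1, the c ring proteolipid gene, was past the fold in opposite directions in different cell types of Yki flies. Against EGT > w1118 its log2 fold change was 0.53 in lower tubule PCs, at 79.8 against 54.8 UMIs per 10,000 (135 and 427 nuclei), and -0.69 in lower ureter PCs, at 57.0 against 92.4 (67 and 74 nuclei). The pooled log2 ratios were 0.56 (0.53 to 0.59) and -0.76 (-0.90 to -0.62). The other control, PCts > w1118, was at 50.3 in lower tubule PCs, a log2 fold change of -0.12 against EGT > w1118, and at 53.4 in lower ureter PCs (39 nuclei), or -0.78, so the lower ureter value of Yki flies lay between the 2 controls. The difference between the cell types was not tested, since each genotype has 1 library.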

How the results depend on the processing

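No paired analysis was possible because each genotype has 1 library. For EGT > yki act over all nuclei, the count of members lower (3) became 7 with a pseudocount of 0.1, 6 after centring, 9 without the nuclei with the fewest genes, 0 against the other control, 1 with equal weight per type, 12 at a fold of 0.25 and 0 at 1. The count higher (0) became 1 with a pseudocount of 0.1 and 1 at a fold of 0.25. The median (-0.46) became -0.29 with pooled UMIs and -0.19 against the other control. In main segment PCs the count lower (6) became 10 with a pseudocount of 0.1, 2 against the other control, 2 with both main segment types merged, 10 at a fold of 0.25 and 0 at 1, the count higher (0) became 1 against the other control, and the median (-0.49) became -0.65 with a pseudocount of 0.1, -0.30 against the other control and -0.30 with both types merged. For PCts > Pvr act over all nuclei the median (-1.24) became -1.61 with a pseudocount of 0.1, -0.91 with pooled UMIs, -1.63 against the other control and -1.59 with equal weight per type, where 1 member was also higher. In merged principal types (-1.17) it became -1.51 and -0.94 with that pseudocount and with pooled UMIs. For the library labelled PCts > Pvr RNAi over all nuclei the count higher (0) became 3 with a pseudocount of 0.1, 8 with pooled UMIs, 3 with equal weight per type and 7 at a fold of 0.25, and the median (0.26) became 0.67 with pooled UMIs and -0.012 against the other control. In main segment PCs its median (0.89) became 1.08 with a pseudocount of 0.1 and 0.70 against the other control, and its count higher (12) became 4 at a fold of 1. The causes were not tested, beyond the stricter or looser fold itself.

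Of 650 log2 fold changes of single members under the alternatives, 411 moved by less than the counting interval, 239 moved more, and 0 past the fold changed sign. Leaving out barcodes found in 2 libraries was added after seeing the data, as were merging the main segment types, the merged principal types for PCts > Pvr act, the side-by-side values with EGT > yki act, the makeup of the widely used UMIs and the relation to gene span. The planned promoter motifs were not run. With 1 library per genotype, no value carries variation between flies, and counts of the rare paralogs are too low to order cell types.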
